A study of Mus musculus with 4 samples.

Results

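A set of epithelial keratin genes were followed in mouse mammary tumour cells: Krt7, Krt8, Krt18, Krt19 and Krt20 of simple epithelia, Krt5, Krt14, Krt15 and Krt17 of basal and stratified epithelia, and Krt80. They were chosen by name, 10 of 22480 gene symbols in the deposited tables, and each was read from the row that carries its symbol. All 10 had a row in the table of mammosphere and bulk cells. The table of Cbx8 knockdown and control cells had a row for 6 of them; Krt5, Krt15, Krt17 and Krt20 were not analysed there.

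The cells were MMTV-Myc cells, mouse mammary tumour cells (genotype label wild type apart from the hairpins). They are named for Myc driven by the viral MMTV promoter, which is active in mammary epithelium. Polyadenylated RNA of 4 cultures was sequenced, 1 library per group: mammospheres (day 20), bulk cells (day 0), cells with an shRNA against Cbx8 (labelled sh68) and cells with a control shRNA (written shLuc in the genotype label and shScr in the description). Mammospheres were kept on low attachment plates with EGF, bFGF and a supplement, and bulk cells in medium with serum and insulin; shRNAs came by lentivirus with puromycin selection. With 1 library per group no spread between replicates exists, no test was made, and every difference below is a difference between 2 libraries.

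Keratins are intermediate filament proteins that assemble only as pairs of a type I and a type II chain. Krt8 (type II) with Krt18 or Krt19 (type I) forms the network of luminal and other simple epithelial cells, whereas Krt5 (type II) with Krt14 (type I) forms that of basal and myoepithelial cells. In the mammary gland the pairs separate the luminal from the basal layer. Type I genes lie together on mouse chromosome 11 and type II genes on chromosome 15, with Krt18 as the exception, next to Krt8.

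Some of these genes are close copies of others, which limits how short reads can be assigned. Of the 100-base windows of the Krt8 transcript, 38.5% matched the processed pseudogene Krt8-ps with at most 2 mismatches, and 16.9% matched it exactly. For Krt14 the share with a match in another gene was 17.3% (Krt16, Krt17 or Krt42), for Krt5 6.91%, for Krt17 3.79% and for Krt18 0.224%. No window of Krt7, Krt15, Krt19, Krt20 or Krt80 had such a match. The stretch below shows why for Krt8: its first 90 coding bases occur unchanged in Krt8-ps (GENCODE M21, GRCm38; Krt8 chr15:102004150-102004239, minus strand; Krt8-ps chr7:23357125-23357214, plus strand).
Krt8: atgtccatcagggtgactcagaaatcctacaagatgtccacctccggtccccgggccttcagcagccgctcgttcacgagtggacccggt
The 3 neighbouring type I genes share a stretch of exon 6 less closely. It is shown with the bases that differ from Krt14 in capitals (GRCm38, minus strand; Krt14 chr11:100204131-100204220, Krt16 chr11:100246633-100246722, Krt17 chr11:100257456-100257545).
Krt14: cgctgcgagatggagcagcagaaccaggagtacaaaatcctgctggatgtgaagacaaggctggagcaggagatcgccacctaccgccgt
Krt16: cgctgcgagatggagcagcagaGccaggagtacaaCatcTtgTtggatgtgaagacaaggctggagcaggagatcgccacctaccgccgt
Krt17: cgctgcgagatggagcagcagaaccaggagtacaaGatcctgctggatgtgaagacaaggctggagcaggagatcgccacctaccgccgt
Over these 90 bases Krt17 differed from Krt14 at 1 base and Krt16 at 4. For Krt16 that is more than the 2 mismatches allowed for a window that holds all 90 bases. Windows with only part of the stretch can still match Krt14, and where the matches lie was not recorded. The sources used here do not say how reads that fit several genes were assigned, so levels of Krt8, Krt14 and Krt16 are uncertain to that extent.

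Mammospheres had far less keratin transcript than bulk cells, with Krt19 as the exception. Values are FPKM (fragments per kilobase of transcript and per unit of library size), which can be compared between genes of a library, and log2 changes were taken after adding 1 FPKM to each value. The 10 genes summed to 75.6 FPKM in the mammosphere library and 952 FPKM in the bulk library, a 12.6-fold difference. On that log2 scale 5 of the 10 genes were at least 2-fold lower in mammospheres (Krt8, Krt18, Krt14, Krt17 and Krt80) and none was 2-fold higher. Krt19 did not reach 2-fold, and Krt5, Krt7, Krt15 and Krt20 stayed under 1 FPKM in both libraries. Of all 11630 rows at 1 FPKM or more in either library, 17.2% were 2-fold lower or more and 3.55% were 2-fold higher or more. Of the 4045 rows that the authors tested, the shares were 16.2% lower and 3.73% higher. The median log2 change of the 10 keratins, including the 4 under 1 FPKM, was −1.08, beside −0.24 over those 11630 rows. Rows at 1 FPKM or more in mammospheres and in bulk cells had a median log2 change of −0.21, and with changes taken relative to it the same number of keratins, 5, was 2-fold lower. Fewer cells with a keratin network and less keratin RNA per cell cannot be told apart in such samples.

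**Figure D1:**
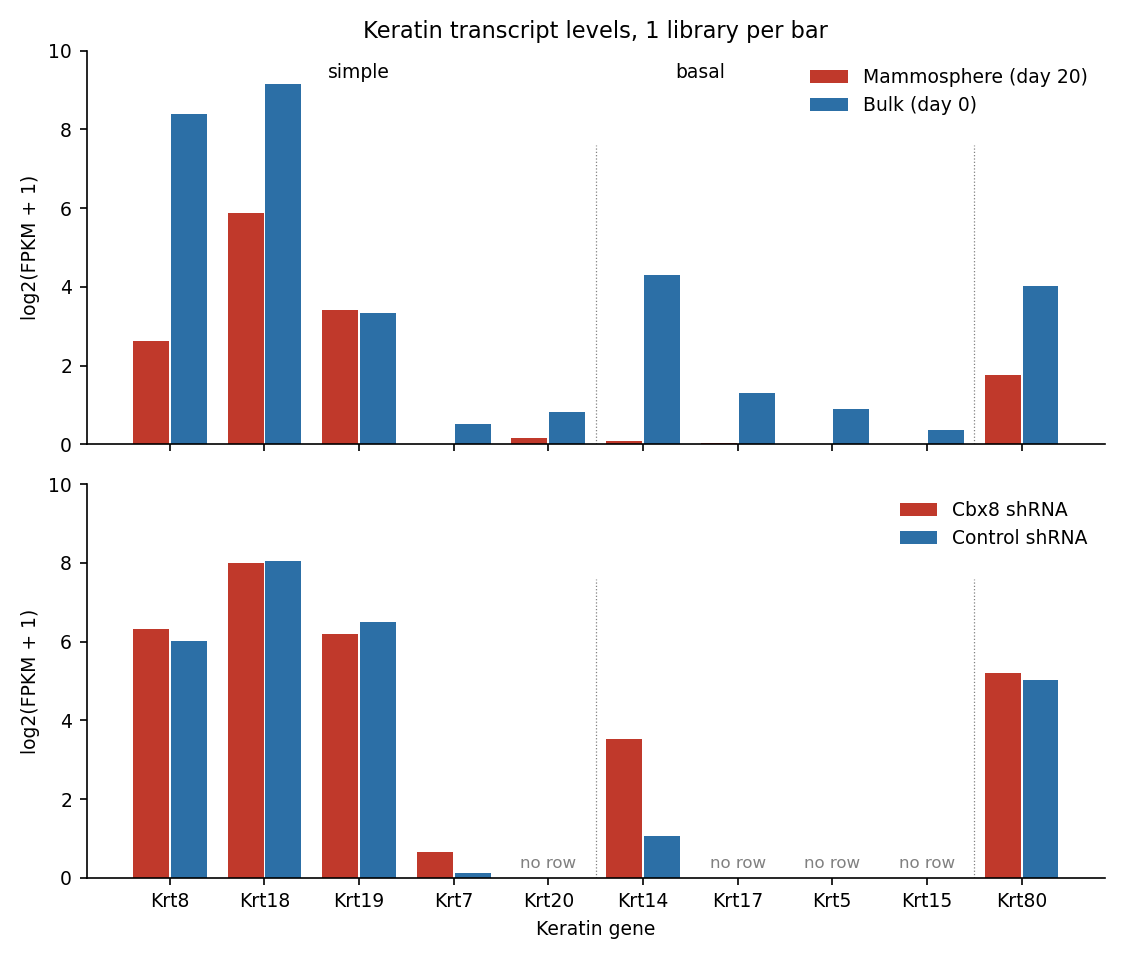
Level of each keratin as log2(FPKM + 1), 1 library per bar, for mammosphere and bulk cells (top) and for Cbx8 shRNA and control shRNA cells (bottom); dotted lines separate simple keratins, basal keratins and Krt80. In the top panel the mammosphere bars of Krt8, Krt18, Krt14 and Krt80 are well below the bulk bars and those of Krt19 are of like height; in the bottom panel Krt14 differs most.

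The simple keratins carried most of the transcript and most of the difference. Krt8 (mm9 chromosome 15, 101827142 to 101834773) was at 5.14 FPKM in mammospheres and 334 FPKM in bulk cells, 64.97-fold lower as a plain ratio (log2 −5.77). Its partner Krt18 (chromosome 15, 101858647 to 101862457, 23.87 kb away) was at 58.2 FPKM in mammospheres and 570.4 FPKM in bulk cells, 9.80-fold lower (log2 −3.27). Both were among the abundant transcripts of bulk cells, where Krt18 held rank 106 and Krt8 rank 191 of 22440 rows. In mammospheres the ranks were 973 for Krt18 and 7762 for Krt8. In the authors' deposited table these were the only 2 of the 10 keratins that were tested, with q = 5.57e-06 for Krt18 and q listed as 0 for Krt8.

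Krt19 (chromosome 11, 100002126 to 100007233), the shortest keratin and a type I partner of Krt8, was at 9.65 FPKM in mammospheres and 9.08 FPKM in bulk cells (log2 0.08). It stayed level while Krt8 and Krt18 were lower, so that its ratio to Krt8 was 1.88 in mammospheres and 0.0272 in bulk cells. Relative to the median gene its log2 change was 0.29. Krt7, a type II keratin of ducts and glands, was at 0.00537 FPKM in mammospheres and 0.441 FPKM in bulk cells. Krt20, known from intestinal and urothelial cells, was at 0.117 FPKM in mammospheres and 0.779 FPKM in bulk cells. Neither gene reached 1 FPKM.

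The basal keratins were far below Krt8 and Krt18 in bulk cells, and lower still in mammospheres. Krt14 (chromosome 11, 100064476 to 100068824) was at 0.0534 FPKM in mammospheres and 18.8 FPKM in bulk cells (log2 −4.23). Krt17, a stress-inducible type I keratin, was at 0.0316 FPKM in mammospheres and 1.46 FPKM in bulk cells (log2 −1.25). That call rests on the scale: with 5 FPKM added instead of 1, the log2 change of Krt17 was −0.36. Krt5, the type II partner of Krt14, was at 0.0046 FPKM in mammospheres and 0.875 FPKM in bulk cells, and Krt15, another basal type I keratin, was listed at 0 in mammospheres and at 0.293 FPKM in bulk cells. In bulk cells Krt14 thus stood well above its partner Krt5 in level. Together the 4 basal keratins reached 0.0896 FPKM in mammospheres and 21.4 FPKM in bulk cells, which was 0.119% of the keratin sum in mammospheres and 2.25% in bulk cells. Krt80, a type II keratin found near desmosomes of differentiating epithelia, was at 2.38 FPKM in mammospheres and 15.2 FPKM in bulk cells (log2 −2.26). The authors tested neither the basal keratins nor Krt80 in this comparison; no row marked as not tested was above 25.2 FPKM in bulk cells.

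Keratins outside the 10 were mostly under 1 FPKM, a level that 11630 of all 22440 rows for mammosphere and bulk cells reached. Of 41 other keratin genes in this table, 38 were under 1 FPKM in both libraries and 8 of those were listed at 0 in both. The 3 others did not move alike. Krt16, a type I keratin induced in wounded and stressed epidermis, was at 0.532 FPKM in mammospheres and 58.6 FPKM in bulk cells (log2 −5.28; q = 3.85e-13 in the authors' deposited table). This is above Krt14 in bulk cells, although 41.8% of the 100-base windows of Krt16 matched another gene, Krt14 or the pseudogene Gm11597. Its usual type II partners were near 0: Krt6b was at 0 FPKM in mammospheres and 0.0474 FPKM in bulk cells, and the row that merges Krt6a with Krt82 and Krt85 was at 0 FPKM in mammospheres and 0.123 FPKM in bulk cells. Krt23, a type I keratin, went the other way, at 6.75 FPKM in mammospheres and 0.11 FPKM in bulk cells (log2 2.80), as did Krt76, a type II keratin of the oral epithelium, at 2.53 FPKM in mammospheres and 0.24 FPKM in bulk cells (log2 1.51). Neither was tested by the authors.

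**Figure D2:**
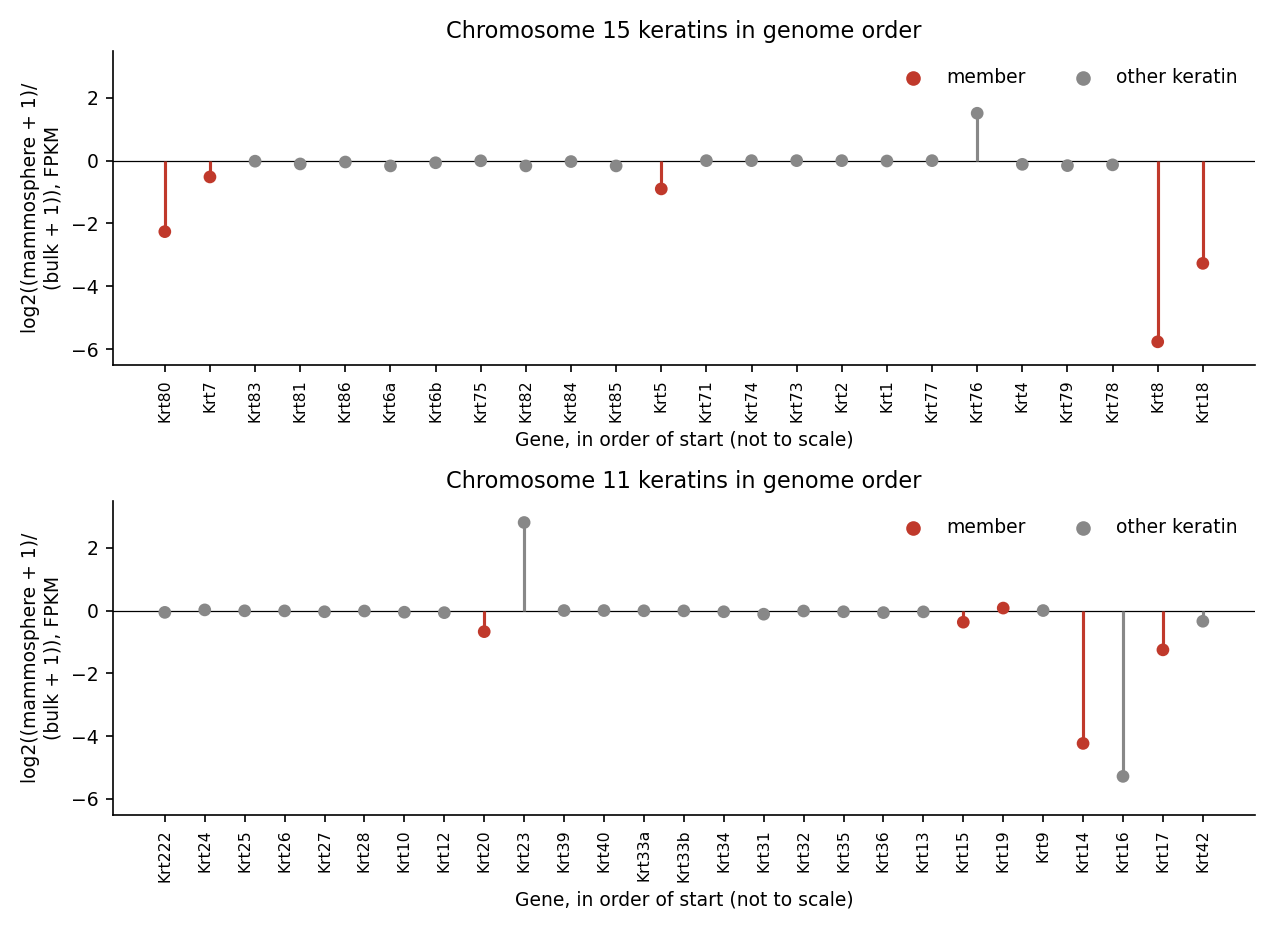
Log2 change, mammosphere over bulk with 1 FPKM added, of every keratin gene with a row, in genome order on chromosome 15 (top) and chromosome 11 (bottom); order is not to scale, and Krt6a, Krt82 and Krt85 share a row. Most points lie near 0, for genes under 1 FPKM in both libraries. More than 2-fold below 0 lie Krt80, Krt8 and Krt18 on chromosome 15 and Krt14, Krt16 and Krt17 on chromosome 11, and more than 2-fold above it lie Krt76 and Krt23.

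The make-up of the summed keratins (10 genes, or 6 in the shRNA cells) differed as well. Such ratios within a library do not depend on how the tables were scaled. Krt18 exceeded Krt8 by 11.3-fold in mammospheres, 1.71-fold in bulk cells, 3.23-fold in Cbx8 knockdown cells and 4.14-fold in control shRNA cells. Krt8 was 6.81% of the keratin sum in mammospheres and 35.1% in bulk cells, with 17.5% in knockdown and 14.1% in control shRNA cells. Krt19 was 12.8% of the sum in mammospheres and 0.954% in bulk cells, and made up 15.9% in knockdown and 20.1% in control shRNA cells. Among these summed genes, type I transcripts exceeded type II by 9.03-fold in mammospheres and 1.71-fold in bulk cells. The excess was 2.93-fold in knockdown and 3.71-fold in control shRNA cells. The sums leave out other keratins, such as type I Krt16, at 58.6 FPKM in bulk cells. In mammospheres they leave out type I Krt23 at 6.75 FPKM and type II Krt76 at 2.53 FPKM. Type I transcripts of the summed genes were thus in excess in all 4 libraries, least in bulk cells. Krt8 was the main type II gene in each of them. Of the 10 keratins it also had the largest share of transcript windows that match another gene, the pseudogene Krt8-ps. The part of such matches was not tested.

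**Figure D3:**
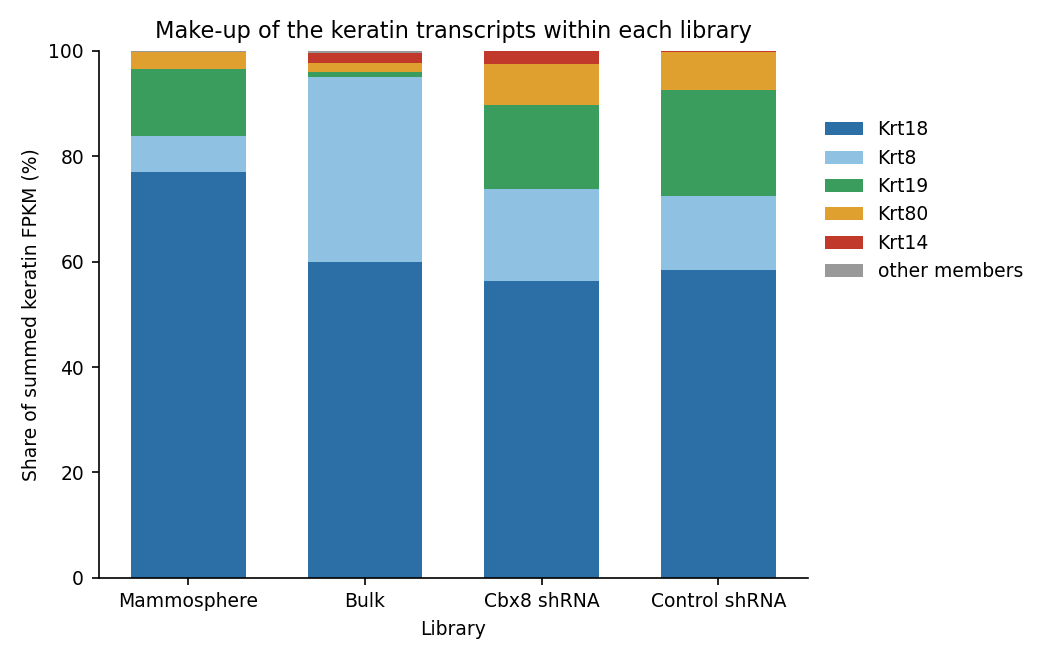
Share of each keratin in the summed FPKM of the keratins with a row, in percent, for each of the 4 libraries (10 genes in mammosphere and bulk cells, 6 in the shRNA cells). Krt18 is the largest share throughout, Krt8 fills 35.1% of the bulk bar and 6.81% of the mammosphere bar, and Krt14 is visible in the bulk and Cbx8 shRNA bars.

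In cells with the shRNA against Cbx8, a Polycomb repressor protein that binds chromatin, Krt14 was higher than in control cells and the other abundant keratins differed little. Cbx8 itself was at 1.23 FPKM in the knockdown library and 4.74 FPKM in the control library, with q = 0.385 in the authors' deposited table. Krt14 was at 10.5 FPKM in knockdown cells and 1.09 FPKM in control cells, a plain ratio of 9.61 (log2 change 2.46). Of the 5 measured keratins at 1 FPKM or more it was the only 1 past 2-fold on the log2 scale. Krt7, under 1 FPKM in both libraries, differed by 6.89-fold as a plain ratio and by 0.55 on the log2 scale. In the authors' deposited table Krt14 had p = 5e-05 and q = 0.0325. Of all 10685 rows at 1 FPKM or more in either library, 0.299% were 2-fold higher or more and 0.449% were 2-fold lower or more; no keratin was 2-fold lower. The median log2 change of the 6 keratins, including Krt7 under 1 FPKM, was 0.24, beside −0.006 over those rows.

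Of the genes that share stretches with Krt14, Krt16 was also higher but under 1 FPKM, at 0.361 FPKM in knockdown cells and 0.101 FPKM in control cells (q = 0.999 in the authors' deposited table), and Krt17 and Krt42 have no row in this table. Laminin Lamb3, a basement membrane chain that anchors the keratin network of basal cells, was also higher, at 5.81 FPKM in knockdown cells and 1.97 FPKM in control cells (log2 1.20), with q = 0.0915 in the authors' deposited table. Krt14 was 2.30% of the keratin sum in knockdown cells and 0.243% in control cells.

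The abundant simple keratins and Krt80 showed small differences in either direction. Krt8 was at 79.3 FPKM in knockdown cells and 63.2 FPKM in control cells (log2 0.32). Krt18 was at 256 FPKM in knockdown cells and 261 FPKM in control cells (log2 −0.03), and Krt19 at 72.3 FPKM in knockdown cells and 90.1 FPKM in control cells (log2 −0.31). Krt80 was at 35.5 FPKM in knockdown cells and 31.8 FPKM in control cells (log2 0.16). Krt7 was at 0.588 FPKM in knockdown cells and 0.0853 FPKM in control cells, under 1 FPKM in both. For each of these 5 genes q was 0.999 in the authors' deposited table. The 6 keratins summed to 454 FPKM in knockdown cells and 448 FPKM in control cells, a ratio of 1.01, or 0.987 with upper quartiles set equal. Among other keratins, Krt23 was at 0.164 FPKM in knockdown cells and 0.848 FPKM in control cells, Krt13 was at 2.34 FPKM in knockdown cells and 2.70 FPKM in control cells, and Krt10, a keratin of the suprabasal epidermis, at 1.64 FPKM in knockdown cells and 1.23 FPKM in control cells.

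**Figure D4:**
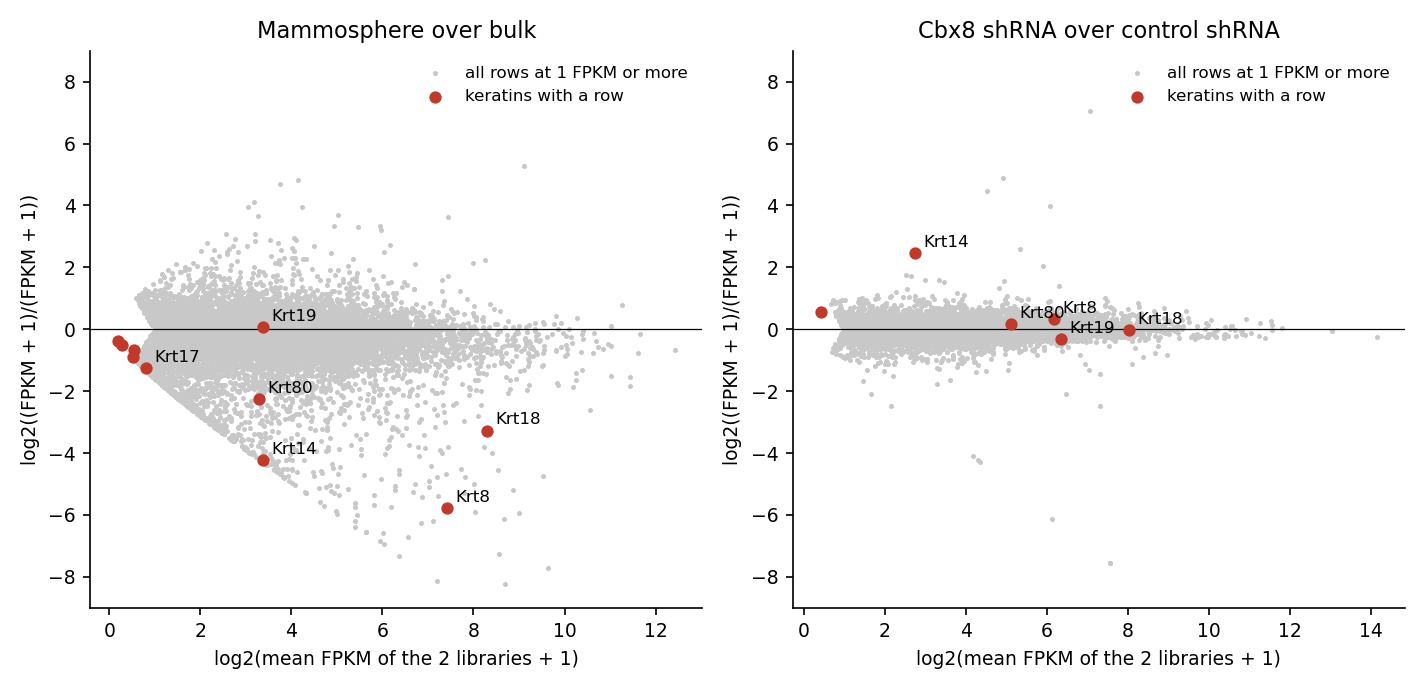
Log2 change with 1 FPKM added against log2 of mean FPKM + 1, for all rows at 1 FPKM or more in either library (grey) and the keratins (red; the unlabelled ones are under 1 FPKM), in mammosphere over bulk (left) and Cbx8 shRNA over control shRNA (right). Krt8 at −5.77 and Krt18 at −3.27 lie among the lowest of the abundant rows on the left, and Krt14 at 2.46 lies outside the grey band on the right.

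The proteins that hold keratin filaments at the cell surface were examined next. Of 15 desmosome and plakin genes, 9 reached 1 FPKM in mammosphere or bulk cells, and 5 of these were at least 2-fold lower in mammospheres and none higher (median log2 −1.47 for the 9), where 17.2% of all rows were 2-fold lower. The list includes Dsg2, a desmosomal cadherin, at 0.475 FPKM in mammospheres and 6.23 FPKM in bulk cells, and Dsc2, its desmocollin counterpart, at 0.564 FPKM in mammospheres and 4.65 FPKM in bulk cells. Pkp2, a plakophilin, was at 7.48 FPKM in mammospheres and 39.5 FPKM in bulk cells, with q = 0.00036 in the authors' deposited table. Perp, a desmosomal membrane protein, was at 14.1 FPKM in mammospheres and 54.6 FPKM in bulk cells, with q = 0.00796 there. Of 9 hemidesmosome genes, 7 reached 1 FPKM and 3 were 2-fold lower, none higher. Among them the laminin chain Lamb3 was at 0.363 FPKM in mammospheres and 1.99 FPKM in bulk cells, and integrin Itgb4 at 0.0529 FPKM in mammospheres and 1.35 FPKM in bulk cells. In the knockdown comparison none of the 8 desmosome genes with a row was past 2-fold, where 0.299% of all rows were higher and 0.449% lower. The largest difference there was in Jup, plakoglobin, at 15.4 FPKM in knockdown cells and 26.6 FPKM in control cells (log2 −0.75). Of 6 hemidesmosome genes with a row, Lamb3 alone was past 2-fold.

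Other filament genes set the keratins in proportion. Vim, vimentin of mesenchymal cells and many cultured lines, was at 1073 FPKM in mammospheres and 3090.0 FPKM in bulk cells (log2 −1.53), and at 3270 FPKM in knockdown cells and 2687 FPKM in control cells. It was thus above the summed keratins in each of the 4 libraries. Nes, nestin, was at 3.13 FPKM in mammospheres and 15.3 FPKM in bulk cells, and the lamin gene Lmna at 216 FPKM in mammospheres and 478 FPKM in bulk cells. Of 6 non-keratin filament genes at 1 FPKM or more, 3 were 2-fold lower in mammospheres and none higher. Of 7 keratin-binding genes at 1 FPKM or more, only Sfn, the 14-3-3 sigma protein of epithelia, was 2-fold lower, at 0.232 FPKM in mammospheres and 1.90 FPKM in bulk cells, a share near the 17.2% of all rows. No gene of these 2 lists was past 2-fold in the knockdown comparison, where few rows were (0.299% higher and 0.449% lower).

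**Figure D5:**
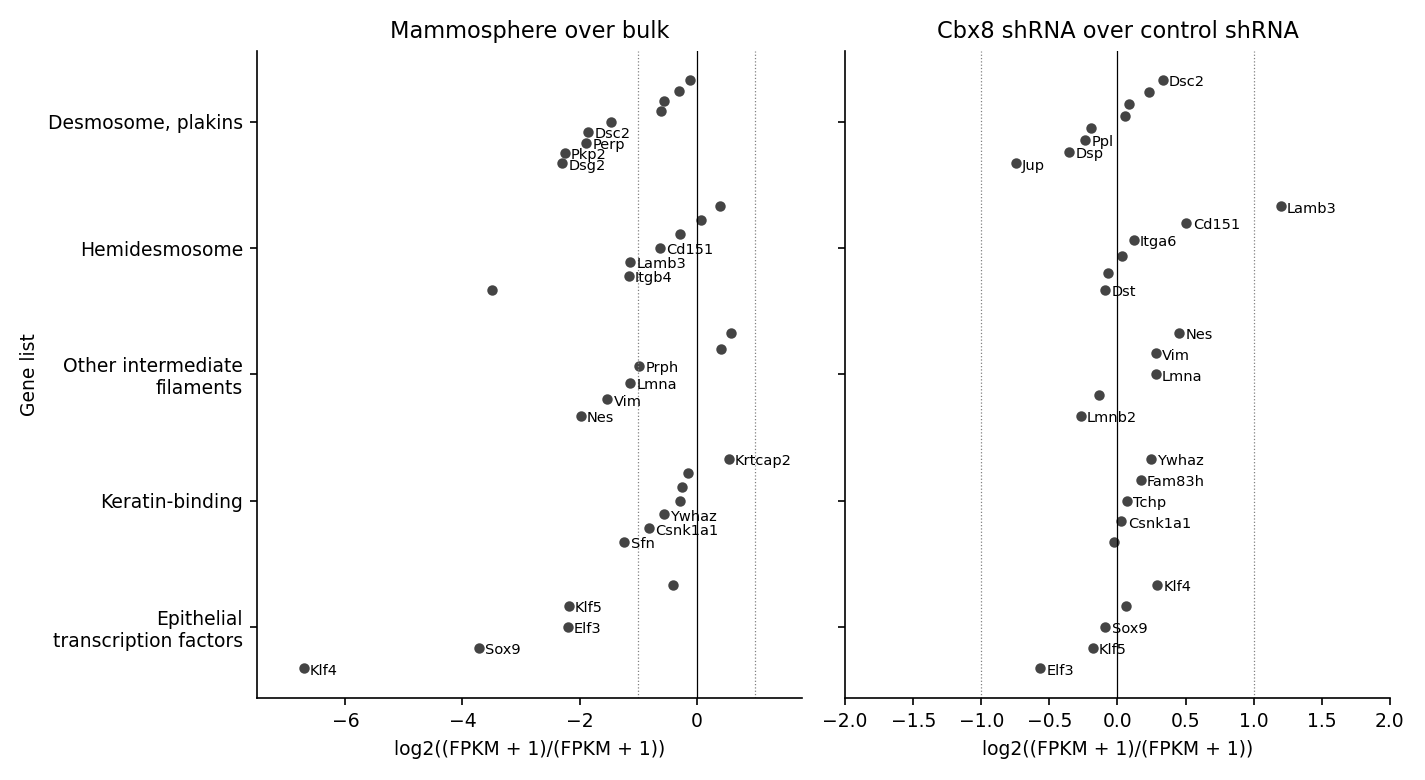
Log2 change with 1 FPKM added of genes in 5 lists related to keratin filaments, for those at 1 FPKM or more in either library, in mammosphere over bulk (left) and Cbx8 shRNA over control shRNA (right); each point is a gene, dotted lines mark 2-fold, and most of the up to 4 genes per list with the largest change are named. On the left the points reach −6.71 (Klf4), and on the right Lamb3 at 1.20 is the point past 2-fold.

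Few of the listed epithelial transcription factors reached 1 FPKM. Of 18 listed, 16 had a row and 5 reached 1 FPKM in mammosphere or bulk cells, where 11630 of all 22440 rows did. Of these 5 factors, 4 were at least 2-fold lower in mammospheres, where 17.2% of all rows at 1 FPKM or more were. Klf4, a regulator of epithelial barrier differentiation, was at 0.794 FPKM in mammospheres and 187 FPKM in bulk cells (log2 −6.71). Sox9 was at 4.55 FPKM in mammospheres and 72.3 FPKM in bulk cells, Elf3 at 1.75 FPKM in mammospheres and 11.7 FPKM in bulk cells, and Klf5 at 11.6 FPKM in mammospheres and 56.2 FPKM in bulk cells. Gata3, a luminal factor, was at 18.5 FPKM in mammospheres and 24.98 FPKM in bulk cells. Trp63, the p63 factor of basal cells that controls Krt5 and Krt14, was listed at 0 in mammospheres and at 0.227 FPKM in bulk cells, and has no row in the knockdown table. In that comparison none of the 5 factors at 1 FPKM or more was past 2-fold, and few rows of any kind were (0.299% higher and 0.449% lower).

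The list of mammary epithelial markers holds 4 genes besides Krt8 and Krt18, and they did not share a level. Epcam was at 0.0908 FPKM in mammospheres, 1.06 FPKM in bulk cells, 0.0427 FPKM in knockdown cells and 0.338 FPKM in control cells. Cdh1, E-cadherin, was at 0.0135 FPKM in mammospheres, 1.04 FPKM in bulk cells, 0.206 FPKM in knockdown cells and 0.283 FPKM in control cells. Both were thus near or under 1 FPKM in all 4 libraries. The tight junction gene Cldn3 was at 0.276 FPKM in mammospheres and 1.77 FPKM in bulk cells, but at 24.9 FPKM in knockdown cells and 22.8 FPKM in control cells. Cldn7, another claudin, was at 0.509 FPKM in mammospheres and 0.769 FPKM in bulk cells and has no row in the knockdown table. Of 9 luminal genes other than keratins, Gata3 and Cd24a reached 1 FPKM, and of 7 basal and myoepithelial genes Acta2, Tagln and Cnn1 did so in mammosphere or bulk cells.

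Markers of cell types other than epithelium were also lower in mammospheres than in bulk cells. The 10 leukocyte genes summed to 1.18 FPKM in mammospheres and 374 FPKM in bulk cells, with Tyrobp, Cd3e and Fcer1g among those at 0 in mammospheres. All 9 of them at 1 FPKM or more in either library were 2-fold lower, where 17.2% of all such rows were. The 9 fibroblast genes summed to 1.04 FPKM in mammospheres and 320.3 FPKM in bulk cells, with Lum and Thy1 at 0 in mammospheres. Of the 8 at 1 FPKM or more, 7 were 2-fold lower. The 5 endothelial genes summed to 0.24 FPKM in mammospheres and 6.17 FPKM in bulk cells, with Tek and Emcn at 0 in mammospheres. Only 2 reached 1 FPKM, and these 2 were 2-fold lower. Mesothelial cells also carry Krt7, Krt8, Krt18 and Krt19. Of 4 mesothelial genes, Lrrn4 was at 0 in both libraries. Upk3b was at 0 in mammospheres and at only 0.00982 FPKM in bulk cells. Wt1 was at 0.0469 FPKM in mammospheres and 1.89 FPKM in bulk cells, and Msln, mesothelin, at 0.362 FPKM in mammospheres and 46.7 FPKM in bulk cells. The part of any such cells in the keratin difference was not tested. In the shRNA cells the leukocyte list summed to 0.588 FPKM in knockdown and 0.759 FPKM in control cells over the 2 of 10 genes with a row, and the fibroblast list to 1.72 FPKM in knockdown and 3.76 FPKM in control cells over 3 of 9. No endothelial gene had a row there. Msln was at 139.5 FPKM in knockdown cells and 92.8 FPKM in control cells, with q = 0.999 in the authors' deposited table.

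Genes with the most similar pattern were taken as those closest in the pair of log2 changes, mammosphere over bulk and knockdown over control, among 7641 genes at 5 FPKM or more in each table. Among the 5 closest to Krt8 were Igfbp7 (distance 0.147 on the log2 scale), the heat shock co-chaperone Dnajb1 (0.191), Ankrd1 (0.352) and the secreted protease Htra1 (0.495). Igfbp7 was at 0.669 FPKM in mammospheres and 81.4 FPKM in bulk cells, and at 55.5 FPKM in knockdown cells and 43.5 FPKM in control cells. The genes nearest to Krt14 were farther away. The closest was the natriuretic peptide gene Nppb, at a distance of 1.13, at 3.67 FPKM in mammospheres and 52.3 FPKM in bulk cells, and at 44.9 FPKM in knockdown cells and 14.4 FPKM in control cells. The next were Col7a1 in a row shared with a microRNA (1.35), Ctla2a, Hist1h2bc (1.41) and the row of Ang and Rnase4 (1.57). Each pattern rests on 4 libraries.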

How the data were processed

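Per the submitters' processing notes, Cufflinks 1.3.0 and Cuffdiff (version listed as 0.0.7) were used, with TopHat 1.4.0, FastQC 0.10.0 and build mm9; the sources used here give no settings. The authors deposited 2 Cuffdiff tables, 1 per pair of libraries, with FPKM per gene and the p-value and q-value of the authors' own comparison, quoted only as such. The tables hold no counts, so depth is unknown and no counting interval was computed. The mammosphere and bulk table holds 7229 rows at 0 in mammospheres and 5458 in bulk cells, but the knockdown table holds none at 0, so silent genes may be missing from it.

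From these values log2((FPKM + 1)/(FPKM + 1)) was computed within each table, and 2-fold differences were counted among rows with at least 1 FPKM in either library, whatever their status. Where a symbol had several rows the highest was used. Row starts were converted to count from 1. Transcript sequences were GENCODE M21 (GRCm38), searched with 100-base windows on the sense strand over 141767 transcripts, pseudogenes included. Genes named are the 10 keratins, other keratins at 1 FPKM, up to 4 members per list with the largest change, Cbx8 and the 5 nearest patterns of Krt8 and Krt14, predicted and small RNA models left out. A few genes that this rule names are not reported here. Other genes were named after their values were seen. The keratins and lists were chosen with earlier results of these data known. The counting was tested on simulated data. Python 3.11.15 with pandas 2.3.3 was used.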

Additional observations from a re-analysis of the deposited data

How the results depend on the processing

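The number of keratins at least 2-fold lower in mammospheres was 5, and 4 or 5 under other pseudocounts, fold limits, FPKM minimums and scalings and with rows summed. By q under 0.05 in the authors' deposited table it was 2, since 8 of the 10 rows were not tested there. In the knockdown comparison 1 keratin was 2-fold higher and 0 were lower under all 9 alternatives run. The other 4 keratins at 1 FPKM or more lay between log2 −0.31 and 0.32, which left these settings little room to change the counts. The ratio of summed keratins was 0.0794 for mammospheres over bulk cells, 0.0918 relative to the median gene and 0.099 with equal upper quartiles. Of 80 values of single keratins under alternatives, 14 moved by over 1.5-fold, each with the pseudocount. No keratin at 2-fold or more turned its sign under either scaling. A pseudocount cannot turn a sign, and each keratin had 1 row, so summing rows changed nothing.

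Over all rows the authors tested, 151 were 2-fold higher in mammospheres, but 354 with a 1.5-fold limit, 37 with 4-fold, 228 relative to the median gene (with 499 lower), 280 with equal upper quartiles (with 455 lower) and 413 over rows of any status. There were 654 lower, but 1221 with a 1.5-fold limit, 263 with 4-fold and 2003 over rows of any status. In the knockdown 32 were higher, but 88 and 14 with pseudocounts of 0.1 and 5, and 224 and 8 with 1.5-fold and 4-fold limits; 48 were lower, but 114 and 18 with those pseudocounts, and 233 and 10 with those limits. Fold limits and statuses change how many rows can pass. Taking mammosphere changes relative to the median gene subtracted −0.21, and equal upper quartiles multiplied mammosphere values by 1.25. Neither scaling could thus lower a mammosphere change. A larger pseudocount makes any log2 change smaller in size. No paired analysis was possible because each group has 1 library, and for the same reason no replicate could be left out.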

Other observations

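Of 12 listed genes of squamous differentiation, 4 reached 1 FPKM in mammosphere or bulk cells (Krt16, Sprr1a, Sprr1b and Sfn), and these 4 were at least 2-fold lower in mammospheres, where 17.2% of all rows were. The 8 others were under 1 FPKM in both libraries and did not all differ one way. Ivl, involucrin, was at 0.404 FPKM in mammospheres and 0.0149 FPKM in bulk cells, and Krt10 and Krt13 had log2 changes of −0.05 and −0.04. Sprr1a, a cornified envelope precursor, was at 3.19 FPKM in mammospheres and 37.1 FPKM in bulk cells. Sprr1b was at 1.82 FPKM in mammospheres and 34.2 FPKM in bulk cells. In the shRNA cells Sprr1a was at 10.1 FPKM in knockdown and 9.42 FPKM in control cells, and Sprr1b at 0.389 FPKM in knockdown and 1.67 FPKM in control cells.

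The 2 tables were normalized separately, so levels set across them are values only. Krt19 was at 72.3 FPKM in knockdown, 90.1 FPKM in control shRNA, 9.65 FPKM in mammosphere and 9.08 FPKM in bulk cells. Krt80 was at 35.5 FPKM in knockdown, 31.8 FPKM in control shRNA, 2.38 FPKM in mammosphere and 15.2 FPKM in bulk cells.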
